A study of Xenopus tropicalis with 8 samples.

Results

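The genes described here are uggt1, uggt2, edem3, sel1l, erp29, txndc12, mesd, cdnf, ppic and calu. These 10 genes were grouped under glycoprotein folding and quality control in the endoplasmic reticulum (ER), and some have broader roles in the secretory pathway. They were chosen by name, and their probes were found by matching the transcript accession of each probe to the RefSeq entries of these genes in Xenopus tropicalis. Each gene had 1 probe, which gave 10 probes among 32899 on the array, and 10 genes among 4639 with a gene symbol. The samples were whole embryos of Xenopus tropicalis, the western clawed frog, labelled as stages 12 to 46. The 4 control samples had no treatment by their labels. The 4 other samples were exposed during development to 887 ppm of Disperse Yellow 7 (DY7), an azo dye for synthetic textiles, and the study asked how this exposure alters gene expression. The labels give no vehicle, no strain and no number of embryos per sample. They describe 4 control and 4 treated groups of embryos, without saying whether these came from separate clutches, so the p-values measure the spread between these samples.

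Proteins that enter the ER receive a branched sugar, the N-glycan, and folding is read from that sugar. Glucosidases trim it, the lectins calnexin and calreticulin hold the trimmed form, and the UGGT enzymes put a glucose back on proteins that are not yet folded, so that the lectins bind them again. Proteins that fail are trimmed further by mannosidases of the EDEM family and passed through the SEL1L adaptor to a ubiquitin ligase for degradation in the cytosol. Other members act on disulfide bonds, on proline bonds or on single clients, and in a tadpole the pathway serves secretory tissues such as liver, pancreas, notochord and skin.

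All 10 probes were tested. RNA came from whole embryos, so fewer cells of a type and less RNA per cell cannot be told apart in any result below. Levels are given as log2 signal minus the log2 of the 75th percentile of the same array, and a level of 0 therefore means a signal at that percentile. A gene was called when its adjusted p in limma's moderated test, corrected by the Benjamini-Hochberg method over 20289 probes, was under 0.05. Over all of these probes 14.1% were called, 9.06% higher in DY7 and 5.07% lower. Blocking on the replicate number of the labels raised these shares to 16.0% higher and 9.25% lower. The 75th percentile itself was a signal of 162 to 327 in controls and of 126 to 202 in DY7. On control 2 only 51.6% of probes were well above background, against 64.0% to 75.9% on the other 7 arrays.

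DY7 embryos had higher levels of uggt2, txndc12 and mesd, by 1.33-fold, 1.44-fold and 1.30-fold. No member was called lower. The 2 largest differences were those of edem3 (1.82-fold) and uggt1 (1.67-fold), which also varied most between arrays and did not pass. With normexp background correction, edem3 read 0.21 and uggt1 0.16 on the log2 scale, below txndc12 (0.37) and mesd (0.29). With extreme local backgrounds repaired, edem3 and uggt1 read 0.53 and 0.49, while txndc12 (0.38) and mesd (0.29) hardly moved. This run differed from the first only in that repair, so edem3 and uggt1 depended on extreme local backgrounds. Both runs had the same offset added to the signals, which by construction shrinks log2 differences more on dim probes than on bright ones. Both edem3 and uggt1 had dim probes. The offset therefore keeps either run from showing how far background correction alone changed these differences from the main analysis. The remaining 5 members, sel1l, erp29, cdnf, ppic and calu, had folds between 0.92 and 1.09. Thus 3 of 10 members were called higher, where 9.06% of all tested probes were. On 4 members all DY7 arrays lay above all control arrays, as they did for 12.7% of tested probes, and on 0 members below, against 8.86%. The 10 had a median log2 fold change of 0.25, against 0.06 over all tested probes. Among the 10, uggt1, edem3 and calu passed the filter on dim probes through the DY7 arrays alone. The 7 members well above background on all 8 arrays had a median of 0.12, against 0.02 over all such probes. The members were picked with earlier results of these arrays known, so these counts describe them and are no test of the group.

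**Figure D1:**
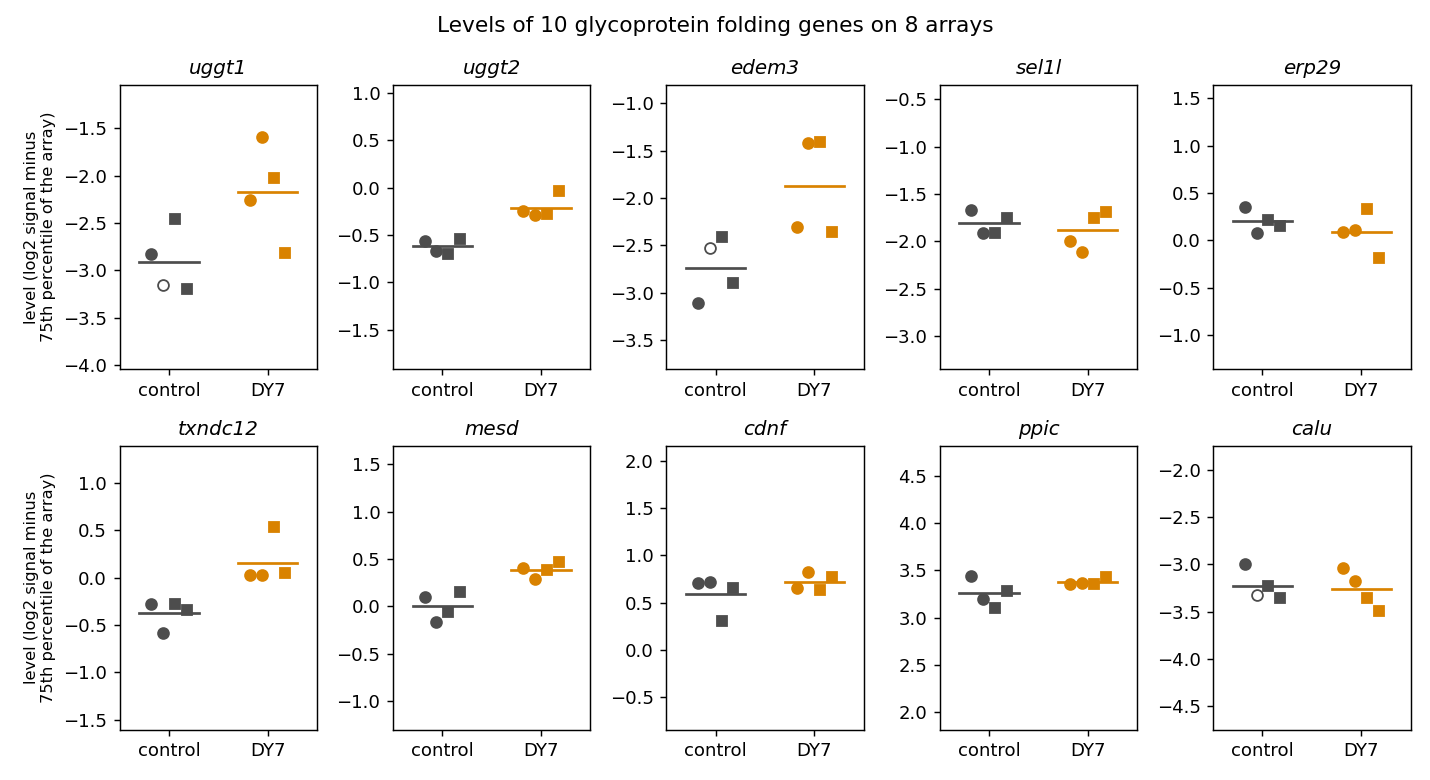
Level of each gene on the 8 arrays, as log2 signal minus the 75th percentile of the array. Circles are arrays of slide 1, squares those of slide 2, open symbols lie below the threshold for well above background, and lines are group means of 4 arrays. Every panel spans the same log2 range. The DY7 arrays of uggt2, edem3, txndc12 and mesd all lie above the control arrays, and those of the other 6 genes overlap with them.

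Results for the glucosyltransferases are given first. The probe of uggt2, which encodes the less studied of the UGGT paralogs, read -0.56, -0.67, -0.70 and -0.54 on control arrays 1 to 4. On DY7 arrays 1 to 4 it read -0.24, -0.28, -0.27 and -0.04. The groups did not overlap, and their means were -0.62 ± 0.08 and -0.21 ± 0.12 (SD, n = 4). uggt2 thus had a log2 fold change of 0.41 ± 0.10 (SE, limma adjusted p = 0.0272), with a 95% interval of 1.14-fold to 1.55-fold. The call held without control 2 (adjusted p = 0.0389) or DY7 4 (0.0474). It was lost without any other array, where the adjusted p ran from 0.0501 to 0.0635 and the log2 fold change from 0.38 to 0.44.

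uggt1 encodes the main folding sensor, which recognises misfolded stretches of a glycoprotein. Its probe was dim, with processed signals of 34.2, 18.2, 40.8 and 35.5 for controls 1 to 4. Under DY7 the signals were 35.1, 41.8, 44.4 and 28.8. It was not well above background on control 2, so that it entered the test through the DY7 arrays alone. As scaled levels these signals were -2.83, -3.16, -2.45 and -3.20 in the controls. The DY7 arrays gave -2.26, -1.59, -2.03 and -2.81. DY7 4 lay below control 3, and DY7 2 was the highest of all 8 arrays. For uggt1 the log2 fold change was 0.74 ± 0.26 (SE, n = 4 per group, limma adjusted p = 0.0827), with a 95% interval of 1.12-fold to 2.49-fold. Without DY7 4 it was 0.95 and was called (limma adjusted p = 0.0296), the only call of uggt1 among 21 alternatives. That run left out the lowest DY7 array of a gene tested through DY7 alone, so the call is no independent support for a rise. Ranked by brightness into 10 equal bins, uggt1 and edem3 fell in bin 2 from the dimmest, whose probes had a median log2 fold change of 0.15 with 8.48% called higher. The part of brightness in these results was not tested.

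The next step concerns the exit towards degradation. edem3, a mannosidase-family gene whose product marks failed glycoproteins, had levels of -3.11, -2.53, -2.42 and -2.90 on control arrays 1 to 4. On DY7 arrays 1 to 4 the levels of edem3 were -2.31, -1.42, -1.40 and -2.36. All 4 DY7 arrays lay above all 4 control arrays, by a narrow gap at DY7 4 and control 3. Arrays DY7 2 and DY7 3 were well above DY7 1 and DY7 4. edem3 had a log2 fold change of 0.87 ± 0.26 (SE, n = 4 per group), and its limma adjusted p of 0.0541 missed the threshold. With the replicate number as a block the adjusted p of edem3 was 0.0107, and with the slide as a block it was 0.0687. The gene entered the test through the DY7 arrays, where it was high, so a call is no independent support for its rise. It was also called without DY7 1 (log2 fold change 1.01, adjusted p = 0.0479) or DY7 4 (1.03, 0.0355). The gene was read by 2 spots per array, which differed by a median of 0.18 on the log2 scale and at most 0.47. On control 2 the probe did not count as well above background.

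sel1l, the adaptor that hands such proteins to the ubiquitin ligase complex, did not pass the test. Its levels were -1.66, -1.91, -1.91 and -1.75 in controls 1 to 4. Under DY7 they were -1.99, -2.11, -1.75 and -1.69. The groups overlapped in part, with DY7 1 and DY7 2 below every control array. For sel1l the log2 fold change was -0.08 ± 0.12 (SE, n = 4 per group, limma adjusted p = 0.695), with a 95% interval of 0.78-fold to 1.15-fold. The mean difference was -0.26 within slide 1 and 0.11 within slide 2, and this contrast between slides was not tested.

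The thioredoxin-fold members were txndc12 and erp29. txndc12 encodes a small ER oxidoreductase that forms and isomerises disulfide bonds, and its probe is classed as cross-hybridising by the array design, so other transcripts may add to its signal. It read -0.27, -0.58, -0.28 and -0.34 on control arrays 1 to 4. The DY7 arrays read 0.03, 0.03, 0.54 and 0.05. Every DY7 array lay above every control array, and DY7 3 stood far above the other DY7 arrays. txndc12 had a log2 fold change of 0.53 ± 0.14 (SE, n = 4 per group, limma adjusted p = 0.0367). Without DY7 3 it was 0.41 with an adjusted p of 0.0740. The call held without DY7 4 (adjusted p = 0.0455) and was lost without any other array (0.0508 to 0.0867).

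erp29 encodes a related protein that lacks the paired active-site cysteines of the disulfide isomerases and escorts proteins towards secretion. Its control levels were 0.35, 0.08, 0.22 and 0.15, and its DY7 levels were 0.09, 0.11, 0.33 and -0.19. The groups overlapped, with the lowest and the second highest of the 8 values both in DY7. For erp29 the log2 fold change was -0.12 ± 0.13 (SE, n = 4 per group, limma adjusted p = 0.539), and the 95% interval ran from 0.76-fold to 1.12-fold.

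mesd encodes a chaperone of the LRP receptors, among them the Wnt co-receptors, and is needed for these to reach the cell surface. It read 0.09, -0.17, -0.06 and 0.16 in controls 1 to 4. Under DY7 it read 0.41, 0.29, 0.38 and 0.47. The groups did not overlap, and the DY7 arrays were closely spaced (SD 0.07, against 0.15 in controls). mesd had a log2 fold change of 0.38 ± 0.10 (SE, n = 4 per group, limma adjusted p = 0.0403). Leaving out any 1 of the 8 arrays ended the call, with adjusted p-values of 0.0613 to 0.0948 and log2 fold changes of 0.32 to 0.43. Its 2 spots per array differed by a median of 0.04.

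cdnf encodes an ER-resident relative of the stress-secreted factor MANF, known in mammals for protecting dopamine neurons. It read 0.71, 0.72, 0.31 and 0.65 in the controls and 0.65, 0.83, 0.63 and 0.78 in DY7. Only control 3 stood apart, below the rest. For cdnf the log2 fold change was 0.12 ± 0.12 (SE, n = 4 per group, limma adjusted p = 0.484, 95% interval 0.91-fold to 1.31-fold). Without control 3 it was 0.03.

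The last 2 members act on proline bonds and on calcium. ppic encodes cyclophilin C, a prolyl isomerase of the secretory pathway. It was measured with the best agreement between spots (median difference 0.02). Its levels were 3.44, 3.19, 3.102 and 3.29 in controls and 3.36, 3.37, 3.36 and 3.43 in DY7, where the 4 arrays differed very little (SD 0.03). For ppic the log2 fold change was 0.12 ± 0.10 (SE, n = 4 per group, limma adjusted p = 0.418, 95% interval 0.93-fold to 1.27-fold). calu encodes calumenin, a calcium-binding protein of the secretory pathway that in mammals restrains vitamin K-dependent carboxylation, and was read by a cross-hybridising probe near background. Its signals were 30.4, 16.1, 23.7 and 31.9 in controls 1 to 4, that of control 2 not being well above background. Under DY7 they were 20.5, 13.9, 17.7 and 18.0. As scaled levels the groups overlapped, and the log2 fold change of calu was -0.03 ± 0.13 (SE, n = 4 per group, limma adjusted p = 0.877). A change in calu of up to 1.20-fold upward or down to 0.80-fold lay within its 95% interval.

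**Figure D2:**
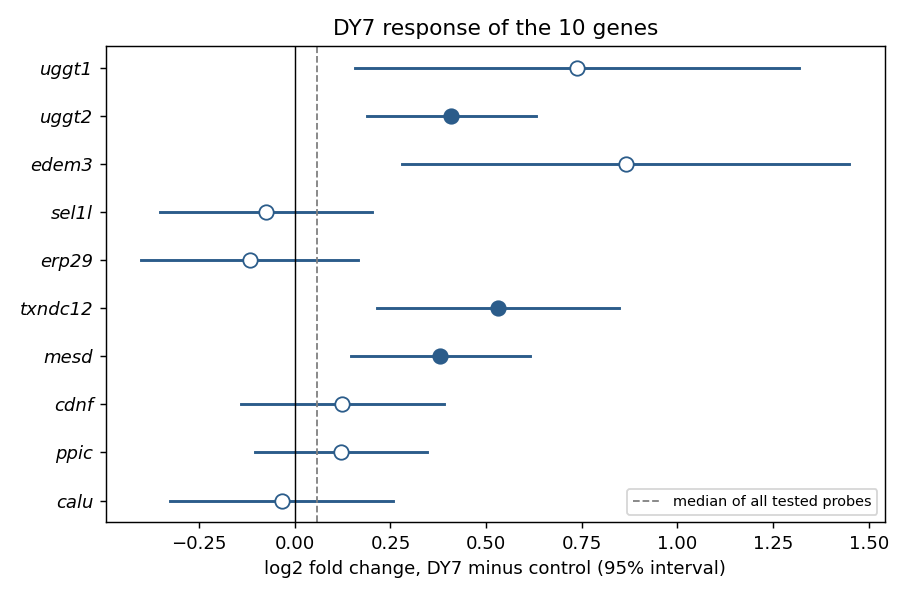
Log2 fold change of each gene, DY7 minus control, with its 95% interval from limma (n = 4 arrays per group). Filled points passed the adjusted p threshold, and the dashed line is the median of all tested probes at 0.06. The intervals of uggt1 and edem3 are the widest and lie above 0, although neither gene passed after adjustment over all probes.

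Differences between genes of like role were compared within arrays, where scaling between arrays cancels. The 4 pairs were chosen after the values were seen, and an exact permutation test, two-sided, used all 70 assignments of the 8 arrays to groups of 4, so that its smallest p is 0.0286. The difference txndc12 minus erp29 lay between -0.66 and -0.49 in controls and between -0.08 and 0.24 under DY7, without overlap. The change of txndc12 exceeded that of erp29 by 0.65 (exact permutation p = 0.0286, 0.114 after Benjamini-Hochberg adjustment over the 4 pairs). For edem3 minus sel1l the difference in log2 fold change was 0.94 (exact permutation p = 0.0857, adjusted 0.114). For mesd minus cdnf it was 0.26 (exact permutation p = 0.0857, adjusted 0.114). For the UGGT paralogs, uggt1 minus uggt2, it was 0.33 (exact permutation p = 0.457), less than the spread of that difference within either group (SD 0.39 and 0.62). None of the 4 passed after adjustment. Because the pairs were picked by their values, these p-values and their adjustment are descriptions and no independent support. edem3 and uggt1 had also entered the test through the DY7 arrays alone. The 70 assignments cross pairs and slides. Within the 4 pairs of one replicate number an exact sign-flip test has 16 assignments and cannot go below 0.125. That value was reached by txndc12 minus erp29, edem3 minus sel1l and mesd minus cdnf, each above 0 in 4 of 4 pairs, while uggt1 minus uggt2 was above 0 in 2 of 4 (exact p = 0.5).

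**Figure D3:**
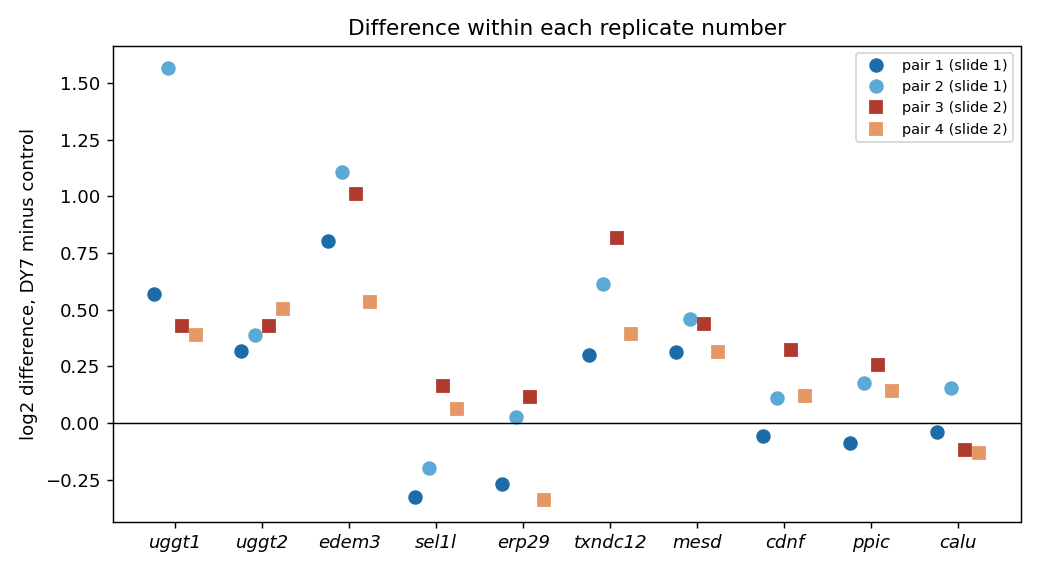
Difference in log2 level between the DY7 and the control array of the same replicate number, for each gene. Circles are pairs on slide 1 and squares pairs on slide 2. All 4 pairs lie above 0 for uggt1, uggt2, edem3, txndc12 and mesd, and uggt1 in pair 2 (1.57) lies far from its other pairs.

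Control and DY7 arrays of the same replicate number shared a slide, and the members were also compared within these pairs. The titles number the samples and name no pairs, so the pairing was read from the arrays themselves. Deviations from group means correlated at 0.11 in pair 2, below control 3 with DY7 2 (0.30). Calls with the replicate block rest on this pairing. All 4 pairs were higher in DY7 for 5 of the 10 members, where 31.3% of all tested probes were. The differences of uggt2 ran from 0.32 to 0.50 and those of mesd from 0.31 to 0.46, the narrowest ranges of the 5. Those of txndc12 ran from 0.30 to 0.82, those of edem3 from 0.54 to 1.11 and those of uggt1 from 0.39 to 1.57. Pair 2 gave the highest uggt1 value, and its control array is the one on which uggt1 was not well above background. With the replicate number as a block, 4 members were called higher, namely edem3 beside uggt2, txndc12 and mesd, and none lower. The same block called 16.0% of all tested probes higher and 9.25% lower. The added gene, edem3, had entered the test through the DY7 arrays alone. The log2 fold change of mesd was nearly equal on both slides (0.39 and 0.37), while that of uggt1 was 1.07 on slide 1 and 0.41 on slide 2.

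Across the 8 arrays, uggt2 and mesd had the most similar profiles among the members (Pearson r = 0.95, and 0.75 for deviations from group means). uggt1 and edem3 followed at 0.85 (0.69 for deviations). The profiles of uggt1 and sel1l ran against each other (-0.58, and -0.59 for deviations). These values rest on 8 arrays that share slides, scaling and signal strength, and are descriptions only. Among 2982 other named genes, edem3 was most like trmt10b (r = 0.993) and cab39 (0.985), uggt1 most like crispld1 and pias1 (both 0.98). uggt2 was most like mgarp and bpnt1 (both 0.97), and mesd most like alkbh7 and riox2 (both 0.98). txndc12 was most like adamts6 (0.97) and ctnna1 (0.96). ppic was most like mettl14 (0.98) and zfand2a (0.96), and sel1l most like ociad1 (0.93) and bckdhb (0.90). erp29 was most like diras1 (0.92) and tpp2 (0.89), cdnf most like lrfn5 and pyroxd2 (both 0.90), and calu most like tvp23a (0.86) and fetub (0.85). The probes of mettl14, zfand2a, diras1, tpp2, lrfn5, tvp23a and fetub are classed as cross-hybridising, so other transcripts may add to their signals. Each gene here was the best of many, so high values arise readily with 8 arrays.

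The rest of the ER folding pathway was read from 10 lists by role, which hold 235 symbols beside the members. The array named 51 of these genes and 40 were tested. Of the 40, 7 were called higher and 1 lower in DY7, with a median log2 fold change of 0.17. Over all tested probes 9.06% were called higher and 5.07% lower, with a median of 0.06. The same shares apply beside each list count below. The list counts and medians below include the members. The replicate block gave 11 higher and 1 lower, where it called 16.0% of all tested probes higher and 9.25% lower. The genes that rose were hspa5, serpinh1, hsp90b1, creld2, pdia4, tmub2 and magt1.

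**Figure D4:**
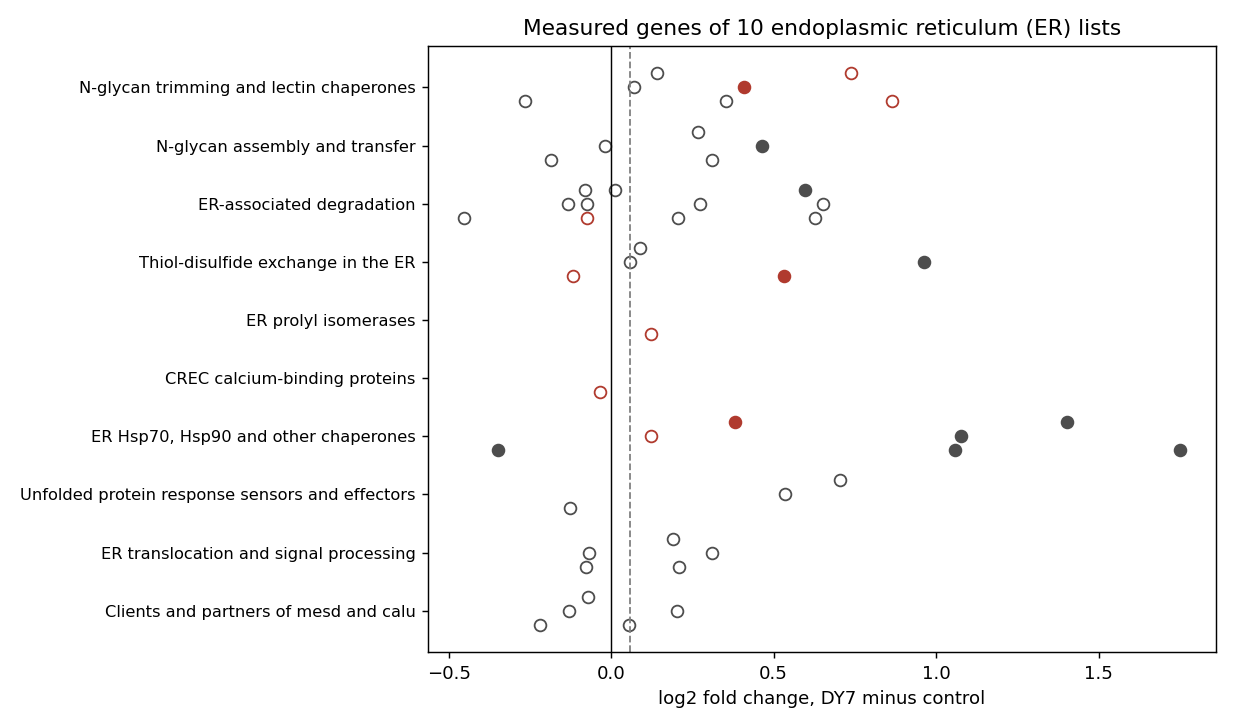
Log2 fold change, DY7 minus control, of every tested gene in 10 lists of ER genes, 1 point per gene in each list. Red points are the 10 genes described here, filled points passed the adjusted p threshold, and the dashed line is the median of all tested probes. The 4 points beyond 1.0 all stand in the list of ER Hsp70, Hsp90 and other chaperones.

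In the N-glycan trimming and lectin list, 1 of 7 tested genes rose, uggt2, and the list median was 0.35. That median includes the members edem3 (0.87), uggt1 (0.74) and uggt2 (0.41), the largest values of the list. edem3 and uggt1 had entered the test through the DY7 arrays alone. Of the other genes, ganab, which encodes the catalytic subunit of glucosidase II, stood at 0.35 ± 0.15 (SE, n = 4 per group, limma adjusted p = 0.141). man1a1 (0.14, cross-hybridising probe) and man1a2 (0.07) were not called. mlec, the lectin malectin, stood at -0.27 ± 0.11 on a cross-hybridising probe (limma adjusted p = 0.127). Calnexin and calreticulin themselves were not analysed here. In the N-glycan assembly list, 1 of 5 rose: magt1, a subunit of the oligosaccharyltransferase that attaches the glycan, at 0.47 ± 0.11 (limma adjusted p = 0.0286). That call was lost without control 3 (adjusted p = 0.0575), DY7 2 (0.0711) or DY7 3 (0.0744). dolk, the kinase that makes the lipid carrier of the glycan, stood at 0.31 ± 0.10 without overlap between the groups (limma adjusted p = 0.0629). In the other direction tusc3 stood at -0.19 ± 0.12 (limma adjusted p = 0.312), and 3 of the 5 genes lay above 0.

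Among ER-associated degradation genes, 1 of 11 rose, near the share of 9.06% over all tested probes, and the median was 0.01. The riser was tmub2, on a cross-hybridising probe, at 0.60 ± 0.10 (SE, n = 4 per group, limma adjusted p = 0.00825), and it was called whichever single array was left out. usp25, a deubiquitinase, stood at 0.65 ± 0.24 (limma adjusted p = 0.0931) and was called with the replicate block (0.0248). Its dim probe was well above background on 3 of 4 controls and entered the test through the DY7 arrays alone. The call is thus no independent support for a rise of usp25. With the replicate block ubxn8, on a cross-hybridising probe, was called too (log2 fold change 0.63, limma adjusted p = 0.111 without the block and 0.00898 with it). This gene was picked out for that call. In the other direction sel1l3 stood at -0.45 ± 0.17 (limma adjusted p = 0.103) and was not called. Of the 11 genes, 6 lay above 0. In the disulfide list 2 of 5 rose, txndc12 and the disulfide isomerase pdia4, while qsox1, a sulfhydryl oxidase, stood at 0.09 ± 0.16. The prolyl isomerase and calcium-binding lists each had 1 tested gene, ppic and calu.

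In the list of ER Hsp70, Hsp90 and other chaperones 5 of 7 rose and 1 fell. hspa5, the Hsp70 of the ER, had a log2 fold change of 1.40, creld2 of 1.08 and hsp90b1 of 1.06, and serpinh1, the collagen chaperone, of 1.75, its probe being near background in 1 of 4 controls. serpinh1 thus entered the test through the DY7 arrays alone, where it was high, so its call is no independent support for its rise. With normexp serpinh1 read 0.68 (limma adjusted p = 0.671), and with repaired backgrounds 0.98 (0.00872). Both runs used the same offset, which shrinks the difference of such a dim probe by construction. They differed from each other only in the repair of extreme local backgrounds. The rise of mesd in the same list was 0.38, and cdnf did not pass. The gene that fell was tor1b, a torsin ATPase, at -0.35 ± 0.10 on a cross-hybridising probe (limma adjusted p = 0.0496). With the slide as a block its adjusted p was 0.0562, and it is named because it was the only fall. Of 3 tested unfolded protein response genes none was called. atf6, the membrane-bound stress sensor, stood at 0.71 ± 0.21 (limma adjusted p = 0.0512) and was called with the replicate block (0.0108) or with the slide as a block (0.0489). Its relative atf6b stood at 0.53 ± 0.28, near background. The third gene, chac1, stood at -0.13 ± 0.21 (limma adjusted p = 0.693).

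None of 5 tested translocation genes was called. srpra, a subunit of the signal recognition particle receptor, stood at 0.31 ± 0.09 (limma adjusted p = 0.0536) and was called with the replicate block (0.0377), and ssr4 stood at 0.19 ± 0.10. Among clients and partners of mesd and calu, none of 5 was called. The receptor genes of the mesd clients read 0.20 ± 0.10 for ldlr (limma adjusted p = 0.171), -0.22 ± 0.10 for lrp2 (0.157) and -0.13 for lrp5, a Wnt co-receptor. The rise of mesd was thus measured beside client genes with log2 differences between -0.22 and 0.20.

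Markers of the main tissues were present in the embryos. Among 5 tested liver genes, serpina1 (0.75) and apob (0.55) were called higher, both on specific probes. The liver genes vtn (-0.28), fgg (-0.49) and alb (0.23), all on cross-hybridising probes, were not called. In exocrine pancreas, which is rich in ER, cpa1 (-0.16) and amy2a (0.07) were not called, and both probes were cross-hybridising. The cartilage gene hapln1 stood at 0.51 and was not called. Among neuron genes nefl was lower (-0.48), and the epidermal gene krt78.6 was lower (-0.46, cross-hybridising probe). Neither skeletal muscle gene was called, and the blood gene slc4a1 stood at 0.41 (limma adjusted p = 0.0703) and was called with the replicate block (0.0258). The part of these tissue markers in the results above was not tested.

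**Figure D5:**
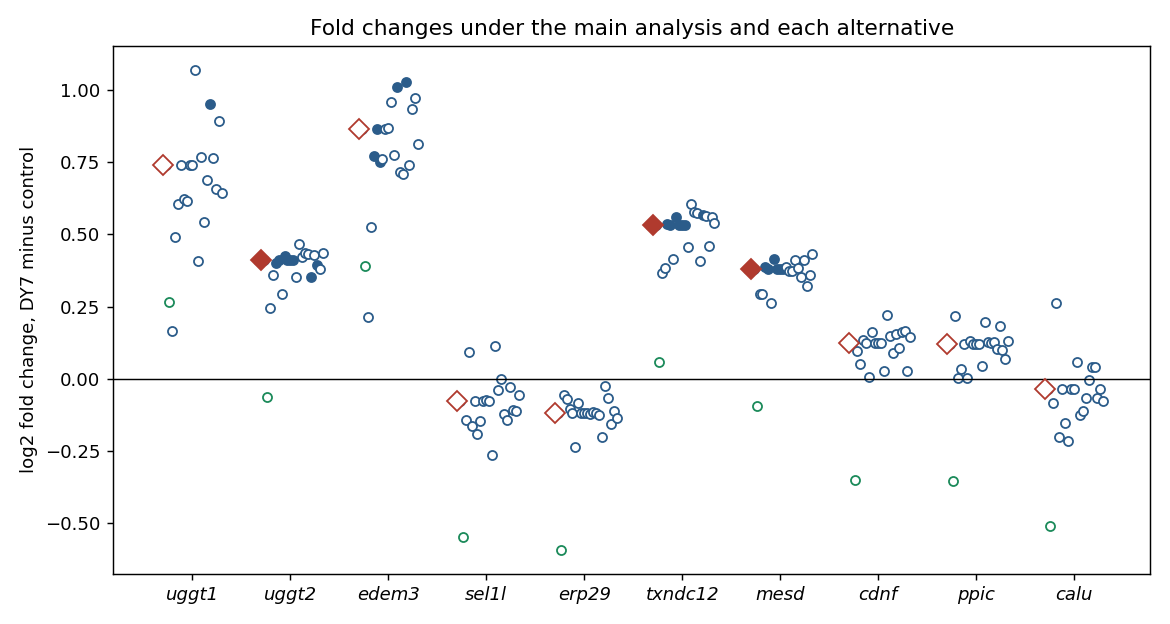
Log2 fold change of each gene in the main analysis (red diamonds) and under each alternative (circles), filled where the adjusted p passed. Green circles are values without scaling between arrays. uggt1, edem3 and txndc12 stay above 0 throughout, and no filled symbol appears for sel1l, erp29, cdnf, ppic or calu.

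The scaling between arrays sets where 0 lies. Without it all tested probes had a median log2 fold change of -0.42, and the members moved with it, so that uggt2 read -0.06 and mesd -0.09. Measured from the median of all tested probes, uggt2 stood at 0.35, mesd at 0.32, txndc12 at 0.47, edem3 at 0.81 and uggt1 at 0.68. These relative values are the same, by construction, with the 75th percentile, with the array median and without scaling. With scaling to the array median, the median of all probes was -0.06, and edem3 was called (0.75, limma adjusted p = 0.0454). edem3 had entered the test through the DY7 arrays alone, so this call is no independent support for its rise. With the same scaling uggt2 (0.29, limma adjusted p = 0.178), txndc12 (0.41, 0.0683) and mesd (0.26, 0.212) were not called.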

How the data were processed

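Total RNA was labelled with Cy3 and hybridised to 8 single-colour Agilent arrays, 4 per slide, with numbers 1 and 2 of both groups on slide 1 and numbers 3 and 4 on slide 2. Per the file headers, Feature Extraction (version 10.7.3.1 for slide 1, 10.7.1.1 for slide 2) made the deposited spot intensity values, which are background-corrected but unscaled. The authors' deposited matrix of log2 values matched the log2 intensity of each array in scale and direction (r of 0.986 or higher), while its centring stays unknown. Its column medians were 5.10, 5.27, 5.16 and 5.12 for controls 1 to 4 and 5.19, 5.17, 5.18 and 5.19 for DY7 1 to 4. The number of arrays limits the precision.

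Outlier spots and 1417 control spots were left out, spots of a probe were averaged as log2, and the 75th percentile over probes was subtracted per array. Probes whose usable spots all exceeded background clearly on every array of either group, and that had a value on each array, were tested (20289) with limma 3.58.1 in R 4.3.3. All 10 members passed this filter; uggt1, edem3 and calu passed through DY7 only. Names came from RefSeq accessions of assembly UCB_Xtro_10.0, without versions. The scripts were tested on simulated data. Figures used matplotlib 3.10.9.

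The members, lists and alternatives were chosen with earlier results of these data known. Named were all members, up to 4 called genes with the smallest p per pathway list (the 2 with the smallest p where under 2 were called), and the 2 best-correlated genes per member. tor1b, ubxn8, sel1l3, tusc3, chac1, lrp5, man1a1, man1a2, sec61b, alg13, faf2, vtn, fgg, alb and the 4 within-array pairs were chosen after their values were seen. Alternatives covered blocks, scaling, background correction, filters, the series matrix and leaving out arrays. The scanner files held no mean signal, so normexp (offset 50) used median signals; local backgrounds over 10 median absolute deviations from the array median were repaired in a further run. Correlations of the deviations of same-numbered arrays from their group means were 0.31, 0.11, 0.45 and 0.45 for numbers 1 to 4, all over 0.1, so the numbers were taken to pair the samples. Arrays of different numbers gave -0.39 to 0.30, so that control 3 with DY7 2 (0.30) and control 1 with DY7 4 (0.24) exceeded pair 2. No 2 arrays were near-identical (r up to 0.995 between arrays of a group).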

Additional observations from a re-analysis of the deposited data

Results flagged for a closer look

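Among 56 sets of 4 arrays (1 named gene in 1 group each), 3 held 1 array whose gap to the nearest other array was most of the range of its group; chance gives about 1 such set in 20. For txndc12, DY7 3 read 0.54, while the other DY7 arrays read 0.03 to 0.05. For uggt2, DY7 4 read -0.038 against -0.28 to -0.24 on the other DY7 arrays, and without it the log2 fold change was 0.35 (limma adjusted p = 0.0474). For cdnf, control 3 read 0.31 against 0.65 to 0.72 on the other control arrays. The causes were not tested.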

How the results depend on the processing

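Over 22 alternatives, erp29 kept its direction in all, and uggt1, edem3 and txndc12 did in those in which they were tested. The main analysis called 2867 probes (64.1% of them higher), 3 members and 8 other pathway genes. With the replicate number as a block there were 5124 probes, and beside edem3 it changed the calls of usp25, ubxn8, atf6, srpra and slc4a1, and no other call among the tested members, pathway genes and tissue markers. Within slide 1 there were 6 probes, 0 members and 0 pathway genes (2 members and 8 pathway genes at an unadjusted p under 0.05), and within slide 2 there were 0 (3308), 0 (2) and 0 (8). Without scaling there were 719 probes, 4.73% of them higher, 0 members (0 at an unadjusted p under 0.05) and 1 pathway gene. With normexp there were 14 probes, 0 members (1) and 1 pathway gene, and with repaired backgrounds 1526, 0 (5) and 6. Without a filter on dim probes there were 562 probes and 0 members (5). With scaling to the median 43.8% of calls were higher and 1 member was called; quantile normalization gave 54.3%. With 1 probe per gene 471 probes passed, of 3436. Without 1 array, 1091 to 3323 probes (52.4% higher without control 2), 0 to 4 members and 6 to 10 pathway genes passed; members numbered 1 without control 2 or DY7 1, 4 without DY7 4 and 0 otherwise. All counts are limma's.

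Directions turned without scaling for uggt2 (-0.064), mesd (-0.093), cdnf (-0.35), ppic (-0.35), ganab (-0.12), magt1 (-0.0076), dolk (-0.16), srpra (-0.16), ssr4 (-0.28) and ldlr (-0.27). They turned for sel1l within slide 2 (0.11) and with repaired normexp (0.093), and for calu within slide 1 (0.058), with repaired normexp (0.26), without control 1 (0.043) and without DY7 4 (0.04). For qsox1 they turned within slide 2 (-0.20), with quantile (-0.11), median (-0.028) or no scaling (-0.38), with normexp (-0.12), with the series matrix (-0.10) and without control 2 (-0.069, the lowest without 1 array; the highest was 0.17, without control 4). For uggt1 minus uggt2 normexp gave -0.080. With repaired backgrounds and the same offset uggt1 read 0.49 and uggt2 0.36, so the difference did not turn there. In both runs the offset by construction shrinks the change of uggt1, the dimmer probe, more. The causes were not tested. Dim probes (uggt1, edem3, calu) lay near background, which limits their precision.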

Other observations

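Arrays DY7 2 and DY7 3 both lay above DY7 1 and DY7 4 for 3 of the 10 members (uggt1, edem3 and erp29) and for 16 of the 40 other pathway genes, a contrast chosen after the values were seen. The same order held for 30.6% of all 20289 tested probes, for 44.4% of those called higher in DY7 and for 46.7% of probes in the brightness bin of uggt1 and edem3, and the members' share of 30% is near that of the array as a whole. The mean of DY7 2 and 3 exceeded that of DY7 1 and 4 by 0.92 for edem3, 0.73 for uggt1, 0.98 for atf6b, 0.81 for serpinh1, 0.59 for atf6 and 0.59 for usp25. For ubxn8 it did so by 0.59, for faf2 by 0.46, for hspa5 by 0.29 and for pdia4 by 0.16. Genes with log2 fold changes below 0 had the same order. The gap was 0.52 for sec61b (log2 fold change -0.07), 0.52 for chac1 (-0.13), 0.27 for erp29 (-0.12) and 0.07 for alg13 (-0.02). The probes of ubxn8, sec61b and alg13 are cross-hybridising. In edem3 this gap within the DY7 group was larger than the log2 fold change between groups (0.87), and in uggt1 nearly as large (0.74).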
